A study of Homo sapiens with 4 samples.

Results

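Accessibility was described at the genes of core-binding factor, the transcription factor made of a RUNX protein and its partner CBFB, in TMD8 cells with and without silencing of IRF4. The members, chosen with earlier results of these data known, are RUNX1, RUNX2, RUNX3 and CBFB. Their intervals were chosen by position alone: an interval is a merged open-chromatin peak of the authors, and it belonged to a gene when its midpoint lay in the gene body, or otherwise when that gene's end was the nearest protein-coding gene end within 100 kb. By this rule 40 of 73135 intervals belonged to the 4 genes, 16 to RUNX1, 12 to RUNX2, 11 to RUNX3 and 1 to CBFB, and all 40 passed the filter on low counts.

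The assay was ATAC-seq: transposase inserts adapters where DNA is not wrapped in nucleosomes, so read counts at a place measure how accessible it is. The cells were TMD8, an established line of activated B cell-like (ABC) diffuse large B cell lymphoma. A group of 2 libraries carried a short hairpin RNA against IRF4 (shIRF4), and the other group of 2 libraries carried a scrambled hairpin (control); titles call the first group shIRF4 and library names call it siIRF4. IRF4 is a transcription factor on which ABC lymphoma cells depend. All libraries came from this 1 line, and the labels state neither the time after silencing nor whether the libraries of a group came from separate cultures, so p-values measure the spread between these libraries, which may be technical.

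RUNX proteins bind DNA through the Runt domain, and CBFB, which does not itself touch DNA, raises their affinity for it. RUNX1 is needed for blood stem cells to form and for early B cell development, RUNX2 drives bone formation, and RUNX3 acts in T cells and is induced in virus-transformed human B cells, where it represses RUNX1. Each RUNX gene is transcribed from a distal start and from a proximal start that lies inside the gene body, and the distal starts are known for RUNX binding sites through which family members regulate each other and themselves.

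The start windows below show what the RUNX genes share and where they part. Each runs 5′ to 3′ on the gene's strand from 250 bases before to 50 bases after an annotated start (RefSeq, GRCh38.p14), and capitals mark RUNX sites, searched as TGTGGT or TGCGGT on both strands. RefSeq windows were at hand for 3 of the 4 genes, and for RUNX1 only for its proximal start.
RUNX2 distal start, chr6:45328080-45328379, plus strand: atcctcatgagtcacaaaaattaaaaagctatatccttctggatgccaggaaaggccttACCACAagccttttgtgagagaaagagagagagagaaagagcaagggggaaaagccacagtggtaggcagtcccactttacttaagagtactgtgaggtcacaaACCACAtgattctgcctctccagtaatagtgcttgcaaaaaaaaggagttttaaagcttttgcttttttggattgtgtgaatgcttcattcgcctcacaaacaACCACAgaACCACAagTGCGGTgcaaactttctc
RUNX3 distal start, chr1:24964961-24965260, minus strand: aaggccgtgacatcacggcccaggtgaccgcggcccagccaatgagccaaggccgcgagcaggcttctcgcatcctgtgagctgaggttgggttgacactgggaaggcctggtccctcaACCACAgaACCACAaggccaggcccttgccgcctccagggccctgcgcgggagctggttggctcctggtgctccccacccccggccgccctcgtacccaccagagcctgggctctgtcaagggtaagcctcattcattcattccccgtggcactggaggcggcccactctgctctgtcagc
RUNX1 proximal start, chr21:34888650-34888949, minus strand: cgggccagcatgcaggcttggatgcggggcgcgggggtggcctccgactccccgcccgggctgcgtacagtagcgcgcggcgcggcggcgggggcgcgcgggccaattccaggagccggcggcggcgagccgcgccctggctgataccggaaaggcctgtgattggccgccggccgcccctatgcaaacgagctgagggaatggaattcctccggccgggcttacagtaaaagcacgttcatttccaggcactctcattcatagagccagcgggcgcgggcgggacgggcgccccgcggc
RUNX2 proximal start, chr6:45422025-45422324, plus strand: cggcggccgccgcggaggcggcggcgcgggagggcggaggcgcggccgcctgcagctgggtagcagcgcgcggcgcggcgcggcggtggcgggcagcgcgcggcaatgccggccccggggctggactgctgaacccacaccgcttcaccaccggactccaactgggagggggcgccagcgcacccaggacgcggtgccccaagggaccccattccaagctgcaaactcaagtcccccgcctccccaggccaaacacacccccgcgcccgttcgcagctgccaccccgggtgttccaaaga
RUNX3 proximal start, chr1:24930227-24930526, minus strand: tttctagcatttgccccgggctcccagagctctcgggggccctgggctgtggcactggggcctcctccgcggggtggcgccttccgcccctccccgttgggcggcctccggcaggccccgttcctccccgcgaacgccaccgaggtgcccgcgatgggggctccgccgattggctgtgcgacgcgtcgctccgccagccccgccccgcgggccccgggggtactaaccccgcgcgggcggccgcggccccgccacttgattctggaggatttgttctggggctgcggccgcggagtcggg

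Both distal windows held the same pair of adjacent RUNX sites, ACCACAGAACCACA, which was searched for once it had been seen in these windows. It occurred in 3 of 35116 promoter windows (0.00854%), the third being that of the olfactory receptor gene OR52N2. The RUNX2 distal window held 5 RUNX sites and the RUNX3 distal window 2, whereas none of the 3 proximal windows held one. A RUNX site was found in 19.6% of all windows. The proximal windows were rich in G and C, at 72.0% for RUNX1, 76.0% for RUNX2 and 76.0% for RUNX3, against 42.7% in the RUNX2 distal and 66.3% in the RUNX3 distal window and a median of 58.7% over all windows. None of the 5 windows held the interferon response element, searched as GAAA and GAAA with any 2 bases between (3.57% of all windows), or the ETS-IRF composite element that IRF4 binds with PU.1, searched as GGAA and GAAA with any 2 bases between (2.82%), each on both strands with overlaps between the motifs allowed. The AP-1 site TGANTCA (7.71% of all windows) occurred once, in the RUNX2 distal window. A match of letters is a description and does not show that a factor binds.

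Over all tested intervals, 16639 of 73028 (22.8%) passed an adjusted p of 0.05 in the edgeR quasi-likelihood test, 7.26% higher and 15.5% lower in shIRF4. Total counts over intervals were 17954924 and 9112860 in the shIRF4 libraries and 12152153 and 13609123 in the control libraries. Intervals within 1 kb of a gene end were found for 8 of 8 B cell marker genes, 3 of 6 T cell, 1 of 4 NK cell, 1 of 6 myeloid and 2 of 6 epithelial and fibroblast marker genes. Summed over their intervals, the B cell markers lay at 1630 to 1720 CPM (counts scaled to each library's total, corrected for library composition) in shIRF4 and 1750 to 1780 CPM in control. T cell markers lay at 106 to 109 CPM in shIRF4 and 122 to 128 CPM in control, and NK cell markers at 130 to 153 CPM in shIRF4 and 151 to 163 CPM in control. Myeloid markers lay at 32.8 to 35.3 CPM in shIRF4 and 31.2 to 32.7 CPM in control, and epithelial and fibroblast markers at 138 to 140 CPM in shIRF4 and 132 to 137 CPM in control. CD3G, KLRD1, MPO and KRT18 of these lists had no interval. The part of other cell types in the results was not tested. The 15 intervals of IRF4 summed to 276 and 249 CPM in shIRF4 and 285 and 295 CPM in control (log2 fold change -0.14, SE 0.05, edgeR adjusted p = 0.0859), but DNA accessibility does not measure the mRNA that a hairpin targets.

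As a family, the core-binding factor genes changed at about the rate of all intervals. Of their 40 intervals, 5 were higher and 4 lower in shIRF4, together 22.5%, against 22.8% of all tested intervals. The 5 higher ones made up 12.5%, against 7.26% of all, and the 4 lower ones 10.0%, against 15.5% of all. The median log2 fold change was -0.02, against 0.01 over all tested intervals. RUNX1 held 3 of the higher and 2 of the lower intervals, RUNX3 2 higher and 1 lower, RUNX2 1 lower, and CBFB none. Of the 26 intervals in gene bodies 2 were higher and 2 lower, and of the 14 outside gene bodies 3 were higher and 2 lower; this split was not tested. The groups did not overlap in CPM at 25 of the 40 intervals, against 59.1% of all tested intervals. When shIRF4 replicate 1 or either control library was left out, fewer intervals were called, among the 40 and among all intervals alike. DESeq2 called 2 of the 40, both higher, and 4566 of all intervals, where edgeR called 16639.

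**Figure D1:**
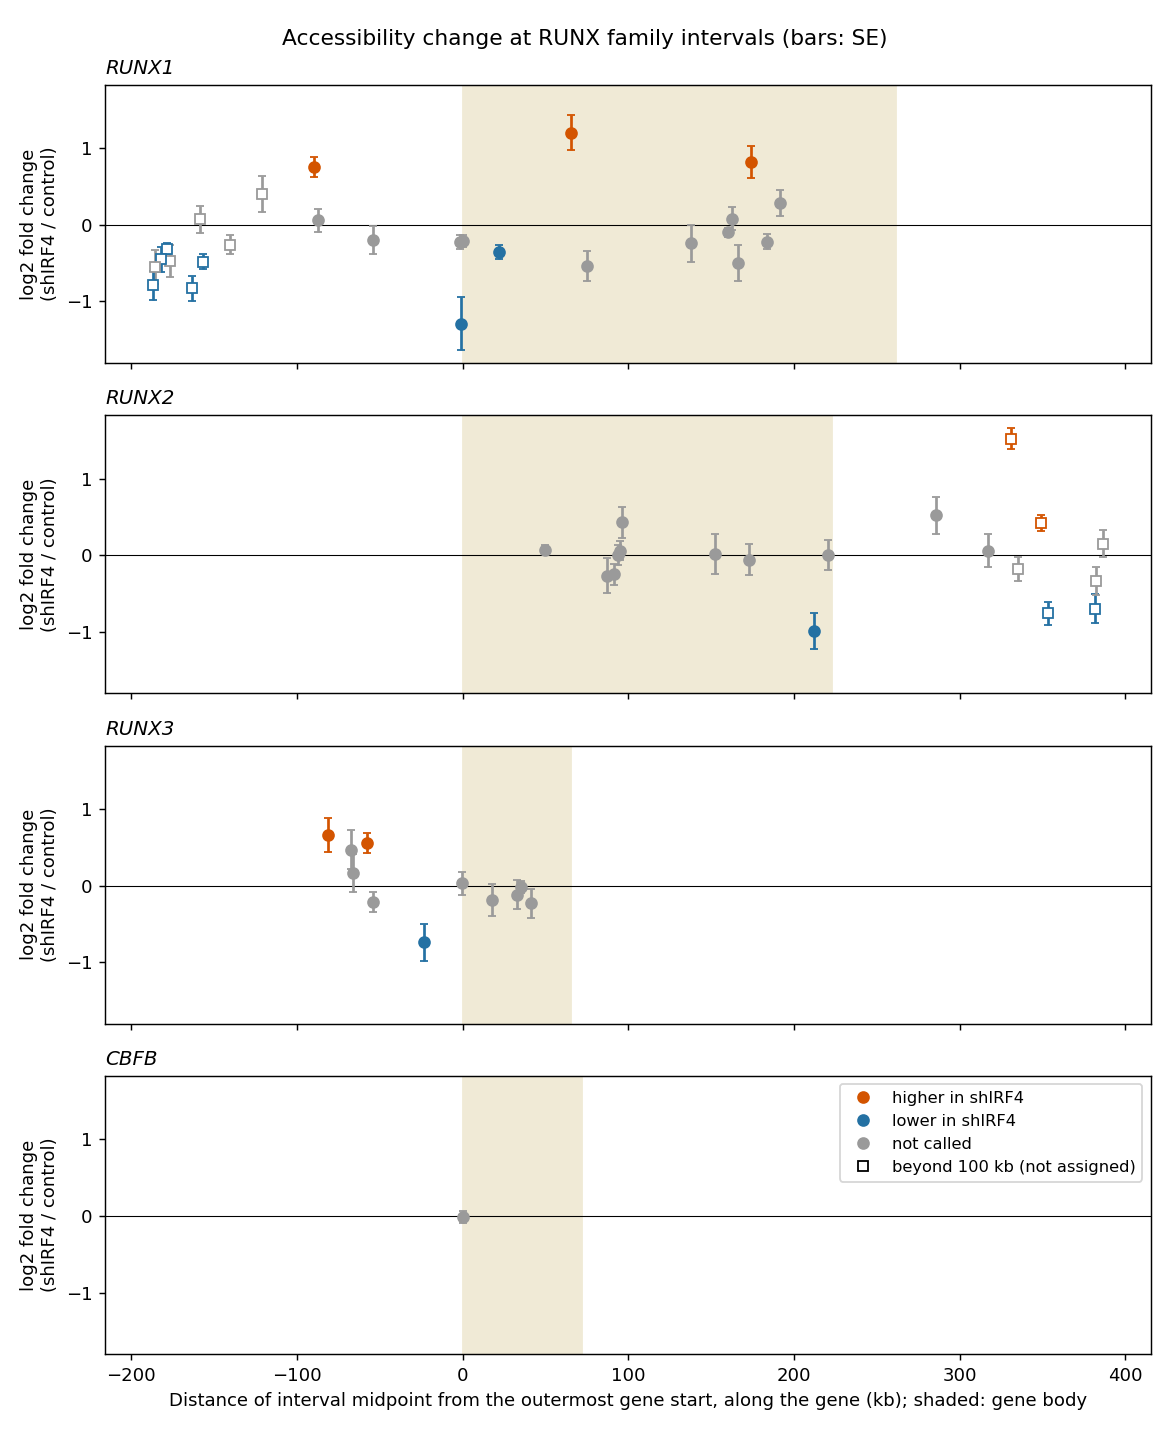
Log2 fold change of accessibility (shIRF4 over control, vertical axis, bars ± SE) of each interval against the distance of its midpoint from the outermost gene start in kb, along the gene (for CBFB from the gene's lower coordinate); shading marks the gene body, filled circles the 40 assigned intervals and open squares intervals 100 to 200 kb away, which the rule does not assign. Called intervals are orange where higher and blue where lower in shIRF4; the intervals over the starts are grey and lie between -0.21 and 0.03, while the lowest point, the RUNX1 interval at -1.29, lies 953 bp from the distal start.

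Summed over all intervals of a gene, none of the 4 genes passed, in a test over 16326 genes of which 20.4% passed, 6.9% higher and 13.5% lower. RUNX1 summed to 229 and 226 CPM in shIRF4, against 247 and 245 CPM in control. Both shIRF4 libraries were lower, and the fold change was small (log2 -0.11, SE 0.05, 95% interval -0.21 to -0.01, adjusted p = 0.102, edgeR). With shIRF4 replicate 1 left out the difference passed at -0.12 (adjusted p = 0.0204, edgeR), with shIRF4 replicate 2 left out at -0.10 (adjusted p = 0.0157, edgeR), and over the gene body alone at -0.14 (adjusted p = 0.0459, edgeR). With a single shIRF4 library the spread comes from the control pair alone, which varied less than the shIRF4 pair. It did not pass without control replicate 1 (-0.11, edgeR adjusted p = 0.491) or control replicate 2 (-0.12, edgeR adjusted p = 0.445), in DESeq2 (-0.11, adjusted p = 0.523) or with library totals, where it shrank to -0.05 (edgeR adjusted p = 0.482). RUNX2 summed to 119 and 113 CPM in shIRF4 and 116 and 117 CPM in control, with overlapping groups (-0.01, 95% interval -0.11 to 0.09, adjusted p = 0.954, edgeR). A large part of this sum is 1 interval over the start of SUPT3H, with a mean of 60.9 CPM in shIRF4 and 58.2 CPM in control. RUNX3 summed to 86.9 and 88.2 CPM in shIRF4 and 86.4 and 86.6 CPM in control (0.02, 95% interval -0.08 to 0.12, adjusted p = 0.849, edgeR). CBFB, with its single interval, stood at 36.4 and 35.5 CPM in shIRF4 and 36.3 and 37.3 CPM in control (-0.03, 95% interval -0.17 to 0.11, adjusted p = 0.792, edgeR). The directions of RUNX2, RUNX3 and CBFB changed with the scaling, the library left out or the assignment window, and are not read as changes.

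Counted intervals covered the starts of the family except the RUNX2 distal start, whose accessibility is not known from these counts. To set intervals of different length side by side, CPM were divided by interval length. This does not correct for other differences between places, such as copy number, which was not measured. For RUNX1 (distal) and CBFB the gene record's end was taken as the start. In shIRF4 the proximal start of RUNX1 stood at 23.8 ± 0.378 CPM per kb, its distal start at 22.6 ± 1.15, the start of CBFB at 20.4 ± 0.474, the proximal start of RUNX3 at 16.4 ± 0.696, its distal start at 13.9 ± 0.835 and the proximal start of RUNX2 at 9.62 ± 0.322 (mean ± SD, n = 2). In control the levels per kb were 25.4 ± 0.370 for the RUNX1 proximal start, 26.3 ± 1.80 for its distal start, 20.7 ± 0.420 for CBFB, 16.6 ± 0.130 for the RUNX3 proximal start, 13.7 ± 0.906 for its distal start and 9.67 ± 0.306 for the RUNX2 proximal start. Among the starts covered by an interval, those of RUNX1 thus had the highest and that of RUNX2 the lowest level per kb in both groups. Only the RUNX1 pair of starts, whose spreads (mean ± SD) overlap in both groups, changed places. No interval covered the RUNX2 distal start at position 45328330. The nearest ones ended 124623 bp before it and began 48652 bp after it, so the window with 5 RUNX sites was not measured here.

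**Figure D2:**
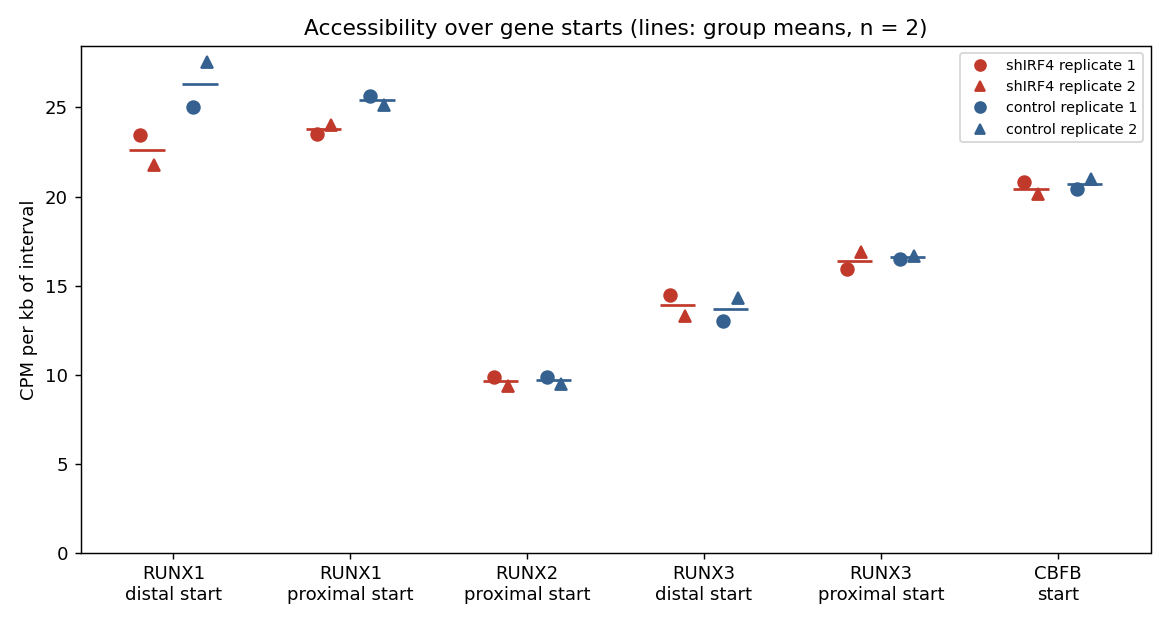
Accessibility over the gene starts in CPM per kb of interval (vertical axis from 0), with shIRF4 in red left of control in blue, replicate 1 as circles, replicate 2 as triangles and group means as lines. RUNX3, RUNX2 and CBFB had nearly equal levels in the groups, and both RUNX1 starts were lower in each shIRF4 library than in either control library without passing the test.

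At RUNX1, which lies on chromosome 21 (34787801 to 35049302, minus strand), neither start passed the test, though both had lower CPM in each shIRF4 library than in either control library. Over the distal start, taken as the upper end of the gene record (interval 35048216 to 35049725), the shIRF4 libraries had 35.4 and 32.9 CPM and the control libraries 37.8 and 41.6 CPM. The groups did not overlap, and the difference did not pass (-0.21 on the log2 scale, with SE 0.08 and adjusted p = 0.0599 in edgeR). The broad interval over the proximal start (34887788 to 34890633), the most read of the gene, had 66.9 and 68.4 CPM in shIRF4 and 73.0 and 71.5 CPM in control. This difference did not pass either (-0.10, SE 0.06, 95% interval -0.22 to 0.03, adjusted p = 0.289, edgeR). An interval just upstream of the distal start (35050444 to 35051832) stood at 24.5 ± 0.494 CPM in shIRF4 and 28.7 ± 1.30 CPM in control and also missed the threshold (-0.23, adjusted p = 0.0579, edgeR). Between it and the start, a short interval of 167 bp (35050172 to 35050338) fell, with 9 and 9 reads in shIRF4 and 22 and 19 reads in control. These low counts gave 0.489 and 0.982 CPM in shIRF4 and 1.85 and 1.41 CPM in control (log2 fold change -1.29, SE 0.35, edgeR adjusted p = 0.00928). The call was lost in DESeq2 and without shIRF4 replicate 1, where the log2 fold change was -0.70, the smallest of the alternatives, while it reached -1.71 in the largest.

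Inside RUNX1, gains and a loss lay in the stretch between both starts and beyond the proximal one. The interval 65354 bp downstream of the distal start (34983794 to 34984103) rose, with 4.34 and 4.36 CPM in shIRF4, against 1.93 and 1.86 CPM in control. It was a weakly open site in control cells, with 23 and 25 reads, and its 2.29-fold gain was the largest among the 40 intervals (log2 fold change 1.20, SE 0.23, adjusted p = 0.000512, edgeR). It was the only one of the 40 that also passed against a 1.5-fold change. Nearer to the distal start, at 22282 bp, the interval 35026555 to 35027486 fell to 18.7 and 18.8 CPM in shIRF4, against 23.3 and 24.8 CPM in control (-0.36, SE 0.09, adjusted p = 0.00604, edgeR). This call was lost in DESeq2 and without control replicate 2. Downstream of the proximal start, the interval 34874764 to 34875141 rose to 4.99 and 4.47 CPM in shIRF4, against 2.60 and 2.83 CPM in control (0.82, SE 0.21, adjusted p = 0.00634, edgeR), a call lost in DESeq2, without shIRF4 replicate 1 and without control replicate 1. The interval 34974218 to 34974674, the next one downstream of the largest gain, stood at 3.47 and 3.49 CPM in shIRF4 and 4.45 and 5.65 CPM in control and missed the threshold (-0.54, adjusted p = 0.0554, edgeR).

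Upstream of RUNX1, the interval 89861 bp before the distal start (35138718 to 35139608) rose. It had 16.6 and 13.0 CPM in shIRF4, against 8.98 and 9.15 CPM in control, a 1.68-fold gain (log2 0.75, SE 0.13, adjusted p = 2e-04, edgeR). Each of 10 alternative fits kept the call, with log2 fold changes of 0.53 to 0.87. The neighbouring interval 35136085 to 35136660 stood at 7.70 ± 1.17 CPM in shIRF4 and 7.62 ± 0.144 CPM in control and showed no detectable difference (0.06, 95% interval -0.26 to 0.37). The remaining RUNX1 intervals that did not pass had log2 fold changes between -0.50 and 0.28. The annotation used here gives gene bodies and starts without exons, so whether an intragenic interval is intronic or exonic was not determined.

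RUNX2, on chromosome 6 (45328330 to 45551082, plus strand), had 1 of 12 intervals called (8.33%), against 22.8% of all tested intervals. With so few intervals, neither this difference nor that from the other genes was tested. The interval over its proximal start (45421480 to 45422455) had 9.61 and 9.16 CPM in shIRF4 and 9.65 and 9.23 CPM in control, with overlapping groups (log2 fold change 0.00, SE 0.13, 95% interval -0.27 to 0.28, adjusted p = 0.993, edgeR). The start of an uncharacterised locus, LOC124901324, lies in the same interval. The neighbouring interval (45422577 to 45423907) stood at 11.8 ± 0.422 CPM in shIRF4 and 11.4 ± 0.519 CPM in control (0.06, adjusted p = 0.785, edgeR). The most read interval (45376982 to 45378786) had 61.8 and 59.9 CPM in shIRF4 and 57.3 and 59.1 CPM in control (0.07, SE 0.06, adjusted p = 0.51, edgeR). It lies in the RUNX2 body but holds no annotated RUNX2 start. The annotated start in it is that of SUPT3H, a gene of a histone acetyltransferase complex whose body overlaps the 5′ part of RUNX2. The interval may therefore be read as a SUPT3H promoter. Its CPM make up a large part of the summed value of RUNX2.

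The RUNX2 interval that changed lay near the 3′ end of the gene (45540457 to 45540688). It fell to 2.01 and 1.64 CPM in shIRF4, against 3.69 and 3.79 CPM in control (log2 fold change -0.99, SE 0.24, adjusted p = 0.00376, edgeR), on 37 and 15 reads in shIRF4 and 44 and 51 reads in control. The call was lost in DESeq2 alone among 10 alternative fits. The other intragenic intervals had log2 fold changes between -0.27 and 0.43, and the 2 intervals beyond the 3′ end stood at 0.52 (adjusted p = 0.135, edgeR) and 0.06 (adjusted p = 0.889, edgeR).

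RUNX3, on chromosome 1 (24899511 to 24965138, minus strand), had calls upstream of the gene and none at its starts. The interval over the distal start (24964928 to 24965494), which holds the window with the paired RUNX sites printed above, had 8.20 and 7.53 CPM in shIRF4 and 7.38 and 8.11 CPM in control (log2 fold change 0.03, SE 0.15, 95% interval -0.27 to 0.34, adjusted p = 0.901, edgeR). The groups overlapped. The interval over the proximal start (24929052 to 24930975) had 30.6 and 32.5 CPM in shIRF4 and 31.7 and 32.1 CPM in control (-0.02, SE 0.08, 95% interval -0.19 to 0.14, adjusted p = 0.88, edgeR). The start of the antisense gene RUNX3-AS1 lies in the same interval, so accessibility there cannot be given to either gene. None of the 4 intervals in the RUNX3 body passed, where 22.8% of all tested intervals did, and this difference was not tested.

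Of the 7 RUNX3 intervals with midpoints upstream of the gene, the one over the distal start included, 3 changed, 2 upward and 1 downward. That is 42.9%, against 22.8% of all tested intervals, a difference between small counts that was not tested. The interval 23242 bp upstream (24988247 to 24988513) fell to 1.95 and 2.84 CPM in shIRF4, against 4.28 and 3.35 CPM in control (log2 fold change -0.74, SE 0.24, adjusted p = 0.0301, edgeR). At 57576 bp upstream, the interval 25022204 to 25023225 rose to 13.6 and 11.7 CPM in shIRF4, against 8.64 and 8.78 CPM in control (0.56, SE 0.13, adjusted p = 0.0026, edgeR). The farthest interval, at 81138 bp (25046095 to 25046458), rose to 4.07 and 4.04 CPM in shIRF4, against 2.35 and 2.75 CPM in control (0.66, SE 0.22, adjusted p = 0.0327, edgeR). All 3 calls were lost without shIRF4 replicate 1, where the first shrank to -0.41 (edgeR adjusted p = 0.443), and in DESeq2, the first also without control replicate 1, and the last also without either control library and with the controls summed to 1 sample. An interval between them (25019101 to 25019858) stood at 9.98 ± 1.31 CPM in shIRF4 and 11.8 CPM in each control library (-0.21, adjusted p = 0.261, edgeR).

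**Figure D3:**
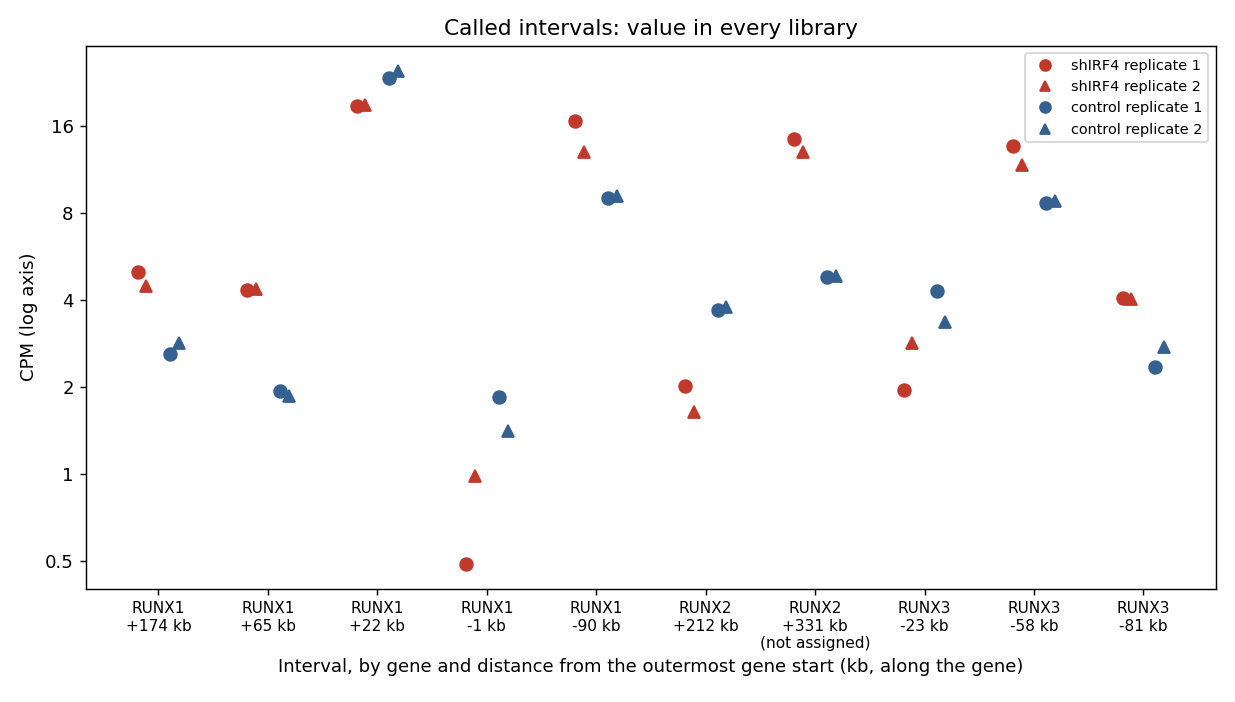
CPM in every library (vertical log axis) at the 9 called intervals of the RUNX genes and at an interval beyond the 3′ end of RUNX2 that the rule does not assign, each named by gene and distance from the outermost gene start in kb; shIRF4 is red and left of control in blue, with replicate 1 as circles and replicate 2 as triangles. The intervals were picked by their calls or by a large gain, so it adds no support that the groups do not overlap at any of them. The groups do not overlap at 59.1% of all tested intervals either. The RUNX1 interval at -1 kb has the lowest values.

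CBFB, on chromosome 16 (67029149 to 67101058), had 1 interval, at its lower coordinate end (67028454 to 67030222). It had 36.8 and 35.6 CPM in shIRF4 and 36.1 and 37.1 CPM in control. The groups overlapped (log2 fold change -0.01, SE 0.08, 95% interval -0.17 to 0.14, adjusted p = 0.923, edgeR). These CPM come from the interval fit and differ slightly from those of the sum, which was scaled on its own.

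Genes around core-binding factor were counted from lists. Of 171 intervals of 18 cofactor genes, which encode corepressors, coactivators and modifying enzymes that bind RUNX proteins, 10 (5.85%) were higher and 30 (17.5%) lower, near the 7.26% and 15.5% of all tested intervals, with a median log2 fold change of -0.08. At CBFA2T3, an ETO family corepressor gene, 12 of 42 intervals were lower and none was higher. The one with the smallest p, in the gene body on chromosome 16 (88967156 to 88969373), fell to 38.4 and 38.8 CPM in shIRF4, against 74.5 and 65.8 CPM in control (-0.86, SE 0.07, adjusted p = 1.75e-08, edgeR). The Groucho corepressor gene TLE1 had 7 of 24 intervals lower and none higher, among them one with 7.76 and 6.33 CPM in shIRF4 and 15.5 and 15.7 CPM in control (-1.11, SE 0.13, adjusted p = 1.49e-06, edgeR). An interval near TLE3, of the same family, fell (-0.94, SE 0.12, adjusted p = 5.03e-06, edgeR), as did one in SMAD3, a transducer of TGF-beta signals, where 3 of 19 intervals were higher and 2 lower (-1.03, SE 0.10, adjusted p = 1.54e-07, edgeR). In SIN3A, the scaffold gene of a histone deacetylase complex, 1 of 2 intervals rose, with 5.32 and 3.60 CPM in shIRF4 and 1.34 and 2.01 CPM in control (1.47, SE 0.26, adjusted p = 0.000216, edgeR). Its level in control was low, and its log2 fold change lay between 1.09 and 1.8 over 10 alternative fits.

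Among 14 genes of transcription factors that act with RUNX proteins, 12 had intervals, and 19 of 141 (13.5%) were higher and 24 (17.0%) lower, against 7.26% and 15.5% of all tested intervals, with a median log2 fold change of 0.00. The list was chosen with earlier results of these data known, and EBF1 alone held 10 of the 19 higher intervals. EBF1 and PAX5 encode B cell identity factors. At EBF1 10 of 38 intervals were higher and 5 lower, and the one with the smallest p fell to 12.7 and 13.0 CPM in shIRF4, against 31.4 and 30.0 CPM in control (-1.26, SE 0.09, adjusted p = 4.12e-09, edgeR). At PAX5 9 of 44 intervals were lower and 2 higher, and a broad one in the gene body fell to 78.4 and 75.4 CPM in shIRF4, against 107 and 114 CPM in control (-0.52, SE 0.06, adjusted p = 1.23e-06, edgeR). At ETS1, whose protein binds DNA together with RUNX1, 7 of 19 intervals were lower and 1 higher. An ETS1 interval in the gene body on chromosome 11 (128468613 to 128469735) fell to 12.2 and 13.7 CPM in shIRF4, against 21.1 and 20.2 CPM in control (log2 fold change -0.69, SE 0.11, adjusted p = 4.16e-05, edgeR). An interval 39432 bp from MYB, a factor of blood progenitors, fell to 0.76 and 1.20 CPM in shIRF4, against 3.19 and 3.50 CPM in control (-1.87, SE 0.29, adjusted p = 4.27e-05, edgeR). This large fold change rests on low levels in both groups. Of the 5 MYB intervals 2 were lower and none was higher. At LMO2, an adaptor gene of blood cell factor complexes, 3 of 10 intervals rose and none fell, with 11.2 and 11.7 CPM in shIRF4 and 5.79 and 7.07 CPM in control at the one 1893 bp outside the gene (0.81, SE 0.14, adjusted p = 0.000209, edgeR).

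Known RUNX target genes, drawn mostly from work in T cells, myeloid cells and bone, had intervals at 17 of 20 genes. Of 84 intervals 7 (8.33%) were higher and 20 (23.8%) lower, against 7.26% and 15.5% of all tested intervals, with a median log2 fold change of -0.02. BLK and GZMB together held most of the 20 lower intervals. BLK, a target also counted as a B cell marker, had 14 intervals, of which 6 were lower and 1 was higher. An interval 39117 bp from GZMB, the granzyme B gene, fell to 6.84 and 7.09 CPM in shIRF4, against 20.0 and 17.9 CPM in control (-1.44, SE 0.12, adjusted p = 2.03e-08, edgeR), and 5 of its 14 intervals were lower and 1 higher. In ZBTB7B, which encodes a CD4 T cell lineage factor, 2 of 6 intervals fell, one of them to 22.5 and 22.1 CPM in shIRF4, against 35.5 and 31.5 CPM in control (-0.58, SE 0.09). MYB, which is also on the list of partner factors, counts here with the same interval. An interval near CD79A, which encodes a B cell receptor signalling chain, rose to 37.2 and 32.1 CPM in shIRF4, against 25.0 and 24.8 CPM in control (0.50, SE 0.09, adjusted p = 2e-04, edgeR), and one in CDKN1A, a cell cycle inhibitor gene, fell (-0.46, SE 0.09, adjusted p = 0.000702, edgeR), a call lost in DESeq2. The counts of the lists are descriptions, and no list was tested as a set.

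**Figure D4:**
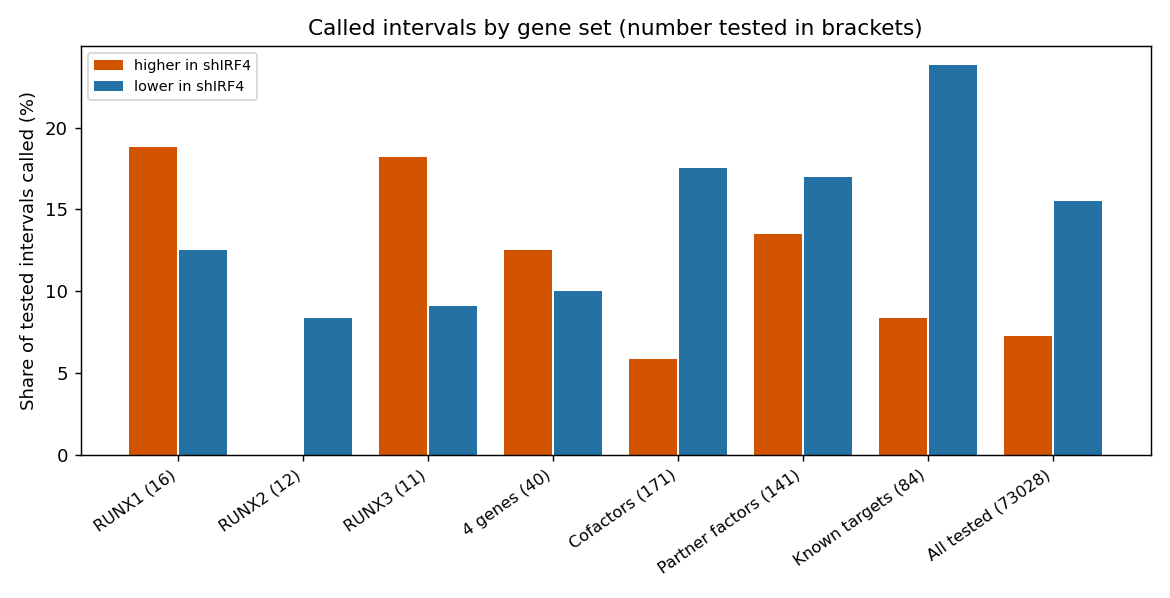
Share of tested intervals called higher (orange) and lower (blue) in shIRF4, in percent from 0, for RUNX1, RUNX2, RUNX3, the 4 genes together, the 3 lists and all tested intervals, with the number tested in brackets. The 4 genes together show 12.5% higher and 10.0% lower, against 7.26% and 15.5% of all tested intervals; CBFB, with 1 interval and no call, has no bar of its own.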

How the data were processed

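The authors deposited raw read counts per merged peak interval for 2 shIRF4 and 2 control libraries, made with featureCounts 2.0.0, per the file headers, which also show that reads were reduced to their 5′ ends, duplicates ignored and fractions of multi-mapping reads requested. All deposited counts were whole numbers. Ignoring duplicates can cap densely read intervals. The submitters' processing notes name hg38 as the build. No source used here gives the aligner, the peak caller or any offset for the transposase cut.

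Intervals were assigned with the RefSeq table (GRCh38.p14, the same build); one inside several gene bodies counted for each. Counts were tested with edgeR 4.0.16 (R 4.3.3) by its quasi-likelihood F-test with TMM factors (0.981 to 1.03), two-sided, after filterByExpr, which left 73028 intervals and removed 107. The Benjamini-Hochberg adjustment ran over all tested intervals, at 0.05, or over 16326 genes for sums. SE is the log2 fold change divided by the square root of F, with 95% intervals from the moderated degrees of freedom. "Rose" and "fell" mean past that threshold. Counts varied little more than by sampling between the control libraries (chi-square per degree of freedom 1.04, p = 1.77e-16) and more between the shIRF4 libraries (2.01), and each was kept.

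The members and lists were chosen with earlier results of these data known. Intervals described in full were, for each gene, the most read one, those over a start or within 1 kb of a gene end, and up to 5 called ones per direction; from each list, the 5 genes with the smallest adjusted p. Other intervals named were chosen after their values were seen. Alternatives were DESeq2 1.42.0, its size factors in edgeR, library totals, no filter, each library left out, a replicate block, summed controls, a 1.5-fold threshold and other assignment limits. The replicate numbers did not pair the libraries.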

Additional observations from a re-analysis of the deposited data

How the results depend on the processing

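The count of 9 called RUNX family intervals was 9 with DESeq2 size factors, library totals, no filter and the replicate block, 8 with the controls as 1 sample and 6 within 50 kb, and lay between 4 and 9 with a library left out. It was 2 in DESeq2 (4566 of all intervals), 1 against a 1.5-fold change (2886 of all), 4 with gene bodies only and 18 of 57 within 200 kb, an alternative added after seeing the data. Of all intervals, 9043 to 20033 were called with a library left out and 16612 with the replicate block; library totals gave 7181 higher and 9926 lower. DESeq2 called 13 intervals of cofactors, 12 of partner factors and 6 of targets, and leaving out a library 22 to 47, 27 to 50 and 15 to 24. The sum of RUNX1 lay between -0.12 and -0.10 with a library left out, passing without either shIRF4 library and not without either control library (adjusted p = 0.491 and 0.445). It was -0.05 with library totals (adjusted p = 0.482) and passed within 50 kb (-0.16, adjusted p = 0.0214), with gene bodies only (-0.14) and within 200 kb (-0.20, adjusted p = 0.00802). Values near 0 changed sign without passing: the RUNX2 sum with library totals (0.06), within 200 kb (0.03) and with a library left out (-0.04 to 0.02), the RUNX3 sum within 50 kb (-0.10) and with gene bodies only (-0.08), and the CBFB sum with library totals (0.03). The RUNX2 proximal start was at -0.01 with the replicate block, at -0.0025 with the controls as 1 sample, and at -0.03 to 0.03 with a library left out; the RUNX3 proximal start at 0.03 with library totals and -0.06 to 0.04 with a library left out; the RUNX3 distal start at -0.04 to 0.10; and the CBFB start at 0.03 with library totals and -0.04 to 0.01 with a library left out. The cause was not tested. With the replicate block none of the 9 family calls was lost; same-numbered libraries deviated together with a correlation of -0.0262, so the numbers are not read as pairs. The called interval with the fewest reads had 9 and 9 in shIRF4 and 22 and 19 in control, and its SE of 0.35 was wide.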

Other observations

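Intervals 100 to 200 kb from RUNX1 and RUNX2 are assigned to no gene by the 100 kb rule, and RUNX1 or RUNX2 has the nearest protein-coding gene end. They were looked at after the values of the assigned intervals were seen. Among the comparisons above, they enter only the alternatives within 200 kb. Beyond the 3′ end of RUNX2, at 108201 bp (chromosome 6, 45658982 to 45659585), an interval had 14.4 and 13.0 CPM in shIRF4, against 4.78 and 4.84 CPM in control. This 2.88-fold gain (log2 1.52, SE 0.14, adjusted p = 7.81e-08, edgeR) was larger than that of any of the 40 assigned intervals, and each of 10 alternative fits kept the call (1.44 to 1.58). In the same stretch the interval 45677371 to 45678175 rose (0.42, adjusted p = 0.00544, lost in DESeq2 and without control replicate 1), and the interval 45681797 to 45682183, which had 5.97 and 6.87 CPM in shIRF4 and 11.2 and 10.2 CPM in control, fell (-0.76, SE 0.15, adjusted p = 0.000469, edgeR), a call kept in the same 10 fits. The interval 45709693 to 45710160 fell as well (-0.70, adjusted p = 0.0104), a call lost in DESeq2, without shIRF4 replicate 1 and without control replicate 1. In all, 2 of 7 intervals there were higher and 2 lower, together 57.1%, where 22.8% of all tested intervals were called, 7.26% higher and 15.5% lower.

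Upstream of RUNX1, at 100 to 200 kb from the gene, 5 of 10 intervals were lower and none was higher in shIRF4, with a median log2 fold change of -0.46, where all tested intervals together had 15.5% lower and a median of 0.01. The most read one (chromosome 21, 35226905 to 35228381), which holds the start of the uncharacterised locus LOC124905015, had 41.7 and 46.7 CPM in shIRF4, against 52.3 and 56.0 CPM in control (-0.31, SE 0.07, adjusted p = 0.00386, edgeR), a call lost in DESeq2, without shIRF4 replicate 1 and without control replicate 2. The interval 35212332 to 35213123 fell to 5.37 and 8.07 CPM in shIRF4, against 10.8 and 11.7 CPM in control (-0.83, SE 0.16, adjusted p = 0.000561, edgeR), a call lost without shIRF4 replicate 1, where it shrank to -0.47 (adjusted p = 0.0761). The interval 35205230 to 35206679 fell by 0.48 on the log2 scale (lost in DESeq2) and 35236136 to 35236408 fell by 0.79 (lost in DESeq2, without shIRF4 replicate 1 and without control replicate 2). The fifth, 35230838 to 35231403 (-0.45, adjusted p = 0.0484), lay so near the threshold that it passed in only 1 of 10 alternatives. Which gene these intervals act on was not measured.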
